A study of Gossypium hirsutum with 15 samples.

Results

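Of 29184 cDNA probes, 48 formed a group with a 2-fold or larger difference between cotton fibers of the line TM-1 and its *im* mutant at both 16 and 19 days post anthesis (DPA), in the same direction, and with a smaller difference at 13 and 25 DPA. The members were chosen by R, the authors' log2 ratio of the dyes turned to log2(TM-1/*im*). A member had a mean R of one sign and of 1 or more in size at 16 and at 19 DPA, and an absolute mean R under 0.7 at 13 and 25 DPA. Its spot also had to reach 400 units above background in at least 1 dye on at least 2 arrays of every stage, which 12092 probes did. By the order of the lines in the source names, 30 members were higher in TM-1. The other 18 were higher in the mutant. The ratio at 22 DPA was not used in the choice, and the rule set no limit on the mean level of both lines beyond the brightness. However, the mean level is taken from the same 2 dyes as R. A faint value of 1 line moves both, so the mean level is not independent of the choice. The comparisons below rest on the ratio at 22 DPA and on the mean level, whereas counts of calls at 16 and 19 DPA are given as a description.

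TM-1 (Texas Marker-1) is the genetic standard line of Upland cotton, and *im* (immature fiber) is a mutant near-isogenic to it, in the TM-1 background. Plants of both lines were grown in the field, and per the methods the RNA of each sample came from a pool of plants. Fiber RNA of both lines was hybridised to each of 15 dual-dye arrays, 3 for each of the stages of 13, 16, 19, 22 or 25 DPA. The array carries cDNA from Upland cotton ovules and fibers. The labels name fiber as the tissue, whereas the series record names ovules that still carried their fibers, and no gene names were paired with the probes, so the tissue could not be checked against marker genes. The methods name 3 pools per stage for the plant material, but for the hybridisations 2 biological replicates with a swap of the dyes. The 3 arrays of a stage may therefore hold only 2 distinct samples of a line, in which case part of the spread behind the p-values is technical and the p-values are too small. In pooled fiber RNA, fewer cells with a transcript and less transcript per cell cannot be told apart.

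A cotton fiber is a single elongated cell of the seed epidermis. It first elongates within a thin primary wall, and then deposits a secondary wall that is nearly pure cellulose, with a transition in which both processes overlap. Fibers of *im* are known for walls that stay thin. No table at hand named a gene for any spot, so the members are given by their spot number in the deposited files and without a role.

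The direction between the lines was not settled. Source names place *im* in Cy5 on replicates 1 and 3 and TM-1 in Cy5 on replicate 2, by the dye labels *im* is always in Cy5, and the methods place TM-1 in Cy5 with an interchange in the swap. Among the 12092 bright probes the log2(Cy5/Cy3) of replicate 2 correlated at -0.80 to -0.38 with replicates 1 and 3 of its stage, and replicates 1 and 3 correlated at 0.53 to 0.82. By the methods the lines are exchanged throughout. By the material labels they are exchanged at 16 and 22 DPA only, so that the 48 probes have opposite signs at 16 and 19 DPA. The same rule then finds 8 probes, of which 0 are among the 48. The mean level of both lines does not depend on which dye held which line.

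Some arrays stood apart in their background. At 19 DPA replicates 1 and 2 had a median local Cy3 background of 972 and 797 units and replicate 3 of 284.5, against 253.5 to 519 on the arrays of the other stages. The files of replicate 1 at 16 DPA and of replicates 1 and 2 at 19 and 22 DPA hold no negative spot flags, unlike the other 10. On replicate 1 of 19 DPA, TM-1 was under 400 units for 13 of the 18 members higher in *im*. On replicate 1 of 16 DPA, *im* was under 400 units for 10 of the 30 members higher in TM-1. Ratios of such spots rest on a value near background in 1 dye.

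By construction, the members stood at both corners of the plot of R at 16 against R at 19 DPA. Before the limits at 13 and 25 DPA, 115 probes reached the size limit at both stages with the same sign, and 34 reached it with opposite signs. With the limits there were 48 and 8. The limits left out the other same-sign probes, which had a ratio of 0.7 or more in size at 13 or 25 DPA.

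**Figure D1:**
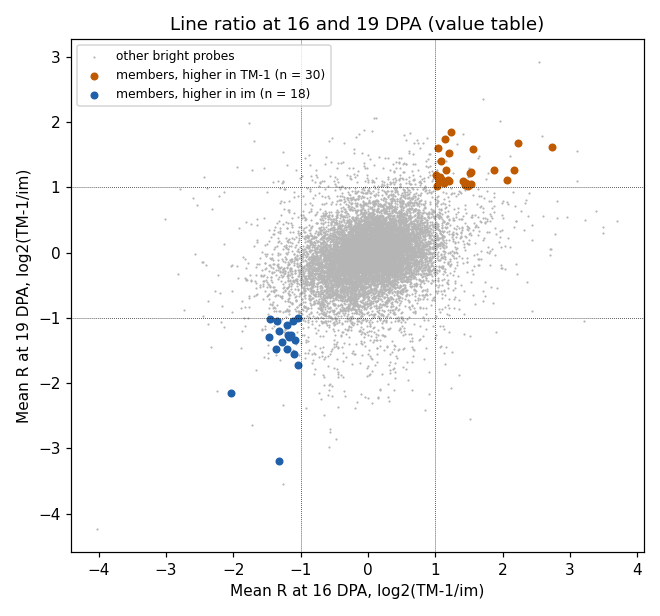
Mean R, log2(TM-1/im) by source names, at 16 DPA (horizontal axis) and 19 DPA (vertical axis) for the 12092 probes that passed the brightness limit. Orange points are the 30 members higher in TM-1, blue points the 18 higher in im, grey points all other probes, and dotted lines mark a size of 1.

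The size of the line difference is a description here, since it chose the members. After loess and Aquantile normalization of the intensities, the 30 members higher in TM-1 had a median log2 ratio of 1.21 at 16 DPA (2.31-fold, range 0.98 to 2.73) and of 1.12 at 19 DPA (2.17-fold, range 1.01 to 1.84). The 18 members higher in *im* had medians of -1.20 at 16 DPA (2.31-fold, range -2.04 to -1.04) and -1.27 at 19 DPA (2.42-fold, range -3.20 to -0.46). The member at -0.46, spot 21110, reached the limit in R but not in these ratios. The same held at 19 DPA for another of the 18, at -0.69. At 16 DPA it held for members of the 30 at 0.9756 and 0.9762. In the limma fit of all probes, 28 of the 30 passed an adjusted p of 0.05 and a 2-fold change at 16 DPA and 29 at 19 DPA, where 4.1% and 1.82% of all probes tested were called higher in TM-1. Of the 18, 18 and 16 passed, where 5.01% and 3.12% of all probes were called higher in *im*. These counts follow from the choice.

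The sign was shared by the 3 arrays of a stage for all but 1 member. At 16 DPA all 30 and all 18 had 1 sign on every array that measured them. At 19 DPA all 30 did and 17 of the 18. Median ratios per array for the members higher in TM-1 were 1.37, 1.39 and 1.26 at 16 DPA and 1.15, 1.06 and 1.26 at 19 DPA. For those higher in *im* they were -1.30, -1.38 and -0.99, and then -1.36, -1.11 and -1.24. Replicate 3 of 19 DPA, without the high Cy3 background, gave medians of the same sign and of 2-fold or more on both sides. All these arrays entered the choice, so the shared signs and the size of these medians follow in part from it.

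At 13 DPA the medians were 0.08 and -0.49, against 0.02 over all bright probes. At 25 DPA they were -0.22 and -0.29, against -0.03. The ratio was negative for 14 of the 30 and 15 of the 18 at 13 DPA, and for 20 of the 30 and 14 of the 18 at 25 DPA. The share of negative ratios among all bright probes was not counted at these stages, and the rule limited the size of R at both. Replicate 3 of 25 DPA stood apart on both sides. Over the members higher in TM-1 the median ratio on it was -0.41, with 22 of 30 higher in *im*, against 0.03 and -0.01 on replicates 1 and 2. Over those higher in *im* the median on it was -0.08, with 11 of 18 below 0, against -0.35 and -0.44.

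**Figure D2:**
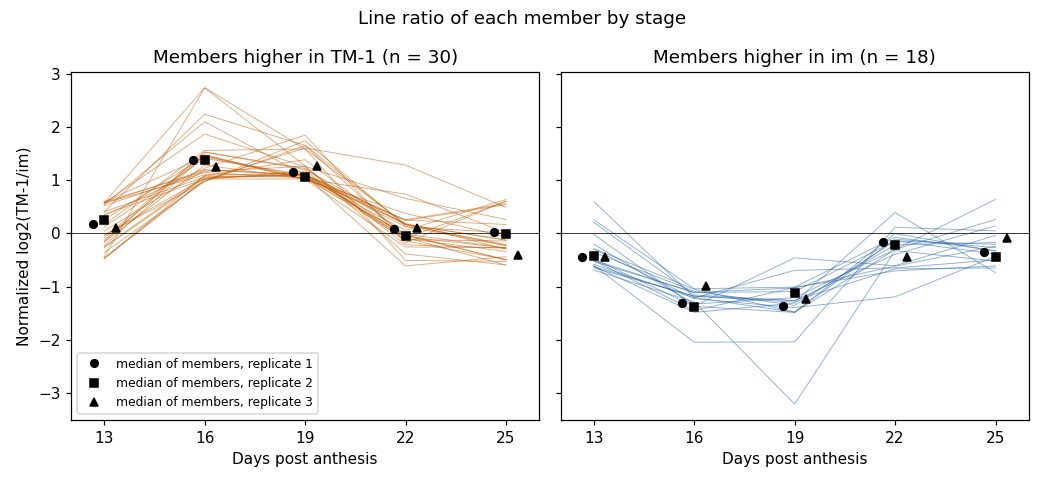
Normalized log2(TM-1/im) of each member (thin lines, means of up to 3 arrays) at 13 to 25 days post anthesis, with the median over members on each array as black symbols. Over members the median is 1.21 and -1.20 at 16 DPA and 1.12 and -1.27 at 19 DPA, stages that chose the members, and 0.02 and -0.30 at 22 DPA, which did not.

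Members were ranked by the smaller of their absolute mean R at 16 and 19 DPA, among those with 1 sign on every array of both stages. By this measure spots 5968 and 18343 came first on the TM-1 side, although other members had a larger ratio at 1 of the stages. For spot 5968 the log2 ratio was 2.25, 2.47 and 1.98 on the arrays of 16 DPA and 1.58, 1.54 and 1.83 on those of 19 DPA. Its intensity in TM-1 was 9506.5, 23610 and 18321.5 units at 16 DPA, against 2355, 3919.5 and 5537 in *im*. No *im* value of 16 DPA reached the lowest TM-1 value. At 19 DPA the intensity of spot 5968 was 28097, 32599 and 37447 units in TM-1, against 11115.5, 10138 and 11588 in *im*. At 22 DPA it was 22542, 21431 and 21559 in TM-1, against 29446, 19290.5 and 21654.5 in *im*, so the lines overlapped. On replicate 3 of 25 DPA the ratio was -0.94, against 0.15 and 0.17 on the other arrays of that stage.

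Spot 18343 had the larger ratio at 16 DPA, with 2.76, 2.84 and 2.60 on the 3 arrays (6.66-fold), and 1.49, 1.502 and 1.78 at 19 DPA (3.01-fold). Its intensity in *im* was 3573, 2182 and 2425 units at 13 DPA and 1934, 2482 and 2931 at 16 DPA, and the ranges overlapped. In TM-1 it was 4601, 3629.5 and 3138.5 units at 13 DPA and 11106, 19110 and 15439 at 16 DPA, and the ranges did not overlap. The normalized ratio was 0.27, 0.16 and 0.09 at 22 DPA.

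By the same measure spots 29963 and 17431 came first on the *im* side. For spot 29963 the log2 ratio was -2.20, -2.26 and -1.66 at 16 DPA (4.11-fold) and -1.84, -2.28 and -1.98 at 19 DPA (4.09-fold). In *im* its intensity was 9716, 8910.5 and 9004.5 units at 13 DPA and 6436.5, 8627.5 and 8723 at 16 DPA. In TM-1 it was 6123, 6515 and 4742 units at 13 DPA and 1213, 1917 and 2448 at 16 DPA. Both lines were low at 19 DPA, with 129.5, 506.5 and 435 units in TM-1, against 886.5, 2058 and 1654 in *im*, and 1 of the TM-1 values was under the limit for faint spots. At 22 DPA the ratio of spot 29963 was 0.04, 0.22 and 0.09.

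Spot 17431 had ratios of -1.52, -1.38 and -1.20 at 16 DPA and -1.66, -1.16 and -1.63 at 19 DPA. Its intensity in *im* was 8446, 7102.5 and 8761 units at 16 DPA and 964.5, 1852.5 and 2829 at 19 DPA. In TM-1 it was 2490, 2911 and 3373 units and then 240.5, 967.5 and 927, so it was lower in TM-1 on every array of both stages. At 22 DPA the ratio had no common sign, with 0.10, 0.25 and -0.36.

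**Figure D3:**
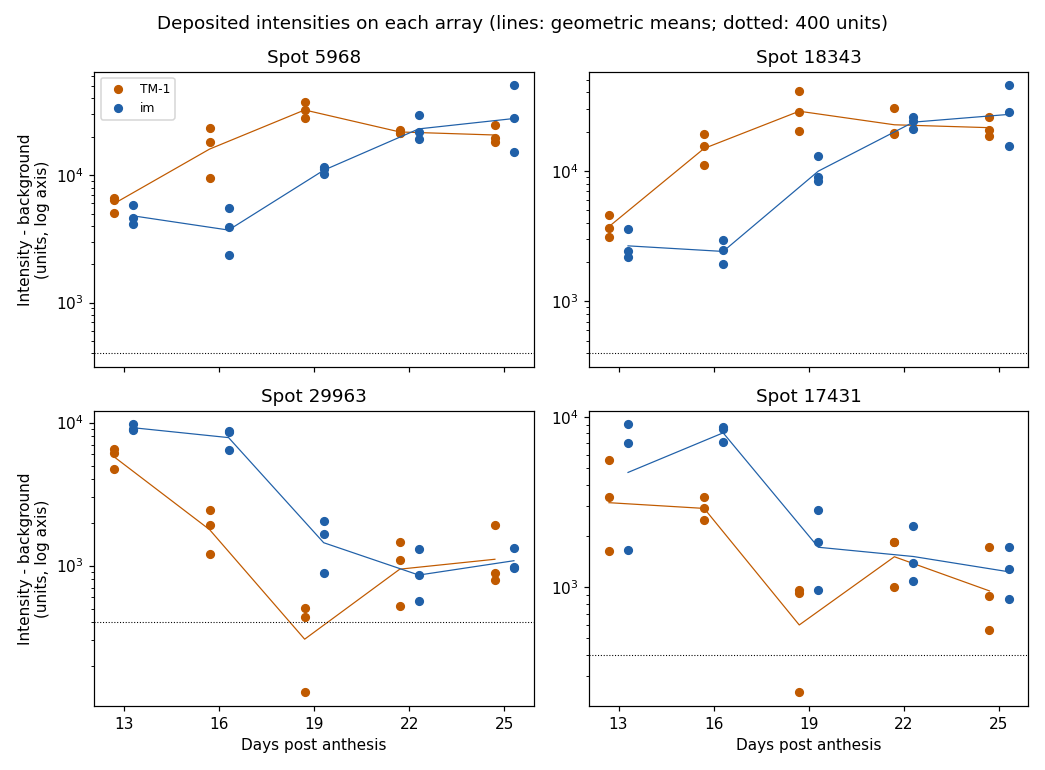
Background-subtracted intensity (units, log axis) of the 4 members ranked first on each array, by days post anthesis, with TM-1 in orange and im in blue; lines join geometric means and the dotted line marks 400 units. TM-1 and im do not overlap at 16 DPA, nor at 19 DPA except for spot 17431 (967.5 against 964.5 units), and they overlap at 22 DPA.

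A replicate left out of the choice gave values that had not chosen the probes. When the rule was applied without 1 replicate number, it found 43, 51 and 43 probes without replicates 1, 2 and 3, of which 30, 30 and 29 were among the 48. On the left-out arrays of 16 DPA, 136 of 136 values had the sign of the other replicates and 104 reached 1 in size. At 19 DPA 134 of 135 had it and 75 reached 1. Among all bright probes, 38.4% to 61.6% of the values on these arrays had the sign in question, and 2.04% to 7.61% reached 1 with it. The 3 arrays of a stage may hold only 2 distinct samples of a line. A left-out array may therefore share its RNA with an array that chose the probes. Replicate 2, with the dyes interchanged, gave the smallest medians at 19 DPA, 0.92 for the probes higher in TM-1 and -0.77 for those higher in *im*. A probe could be chosen in more than 1 of the 3 rounds, so the counts are of values and not of independent probes.

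The limits of the rule fell among close values. On the TM-1 side the member nearest to the size limit was spot 2646, with a mean R of 1.02 at 19 DPA, and the nearest probe outside was spot 20066, with 0.999 at 16 DPA. On the *im* side these were spot 29683, with -1.0004 at 19 DPA, and spot 24884, with -0.997 at 16 DPA. At the limit of 0.7, member spot 13343 had 0.633 at 25 DPA and spot 14833, outside, had 0.728 at 13 DPA. Member spot 29182 had -0.687 at 13 DPA, and spot 26683, outside, had -0.704 at 25 DPA.

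At 22 DPA the measured ratio was under 2-fold for all but 2 of the members. In the limma fit, 1 of the 30 members higher in TM-1 was called higher in TM-1 (3.33%) and 1 of the 18 higher in *im* was called higher in *im* (5.56%). Over all 15456 probes tested, 1.76% were called higher in TM-1 and 1.93% in the mutant. Of the 12092 bright probes, 1.13% and 2.07% were. Other members passed the adjusted p of limma at under 2-fold. On the *im* side their log2 ratios were -0.70, -0.66, -0.65, -0.61 and -0.60, and on the TM-1 side 0.74, 0.66 and -0.61. At an unadjusted p under 0.05 there were 6 and 8 members, in either direction. Shares of all probes were not counted without the 2-fold limit. The 95% interval of the log2 ratio lay within -1 and 1 for 27 of the 30 and for 14 of the 18.

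On the TM-1 side the signs at 22 DPA were even, and on the *im* side most were still negative. The members higher in TM-1 had a median ratio of 0.02 at 22 DPA, with 15 above and 15 below 0. Those higher in *im* had a median of -0.30, with 16 of 18 below 0. Of all bright probes, 50.6% were below 0. On the 3 arrays the median over the members higher in *im* was -0.15, -0.22 and -0.43.

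Spot 10326 stood 2.43-fold above *im* in TM-1 at 22 DPA. Its log2 ratio was 1.29, 1.24 and 1.32 on the 3 arrays (mean 1.28, SE 0.21, 95% interval 0.83 to 1.73, adjusted p = 0.00082 from limma). The intensities were 1864, 1992 and 2859.5 units in TM-1, against 897, 759.5 and 1106 in *im*, and the lines did not overlap. At 13 DPA the sign was the other one, with -0.38, -0.61 and -0.42. The ratio of spot 10326 was 0.04 and 0.02 on replicates 1 and 2 of 25 DPA and 1.41 on replicate 3. Spot 17234 stood 2.28-fold above TM-1 in *im* at 22 DPA, with log2 ratios of -1.09, -1.10 and -1.37 (mean -1.19, SE 0.21, 95% interval -1.64 to -0.74, adjusted p = 0.00131 from limma). It had 11448.5, 12109 and 13883 units in *im* and 4187, 6342 and 5174 in TM-1, again without overlap. Both calls held without replicate 1, 2 or 3, and under the material labels both change direction.

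The mean level of both lines gave the most calls between 16 and 19 DPA, in opposite directions on the sides. Of the 30 members higher in TM-1, 18 (60%) rose and none fell, and of the 18 higher in *im*, 13 (72.2%) fell and none rose, by an adjusted p under 0.05 in limma and at least 2-fold. Among all 13789 probes tested 4.21% rose and 6.44% fell. Of the bright probes 3.29% rose and 5.82% fell. The log2 change had a median of 1.43 over the 30 (range -0.10 to 3.00, 29 of 30 above 0) and of -1.51 over the 18 (range -2.52 to -0.12, all 18 below 0), against -0.17 over all probes tested. Of the bright probes 38% were above 0 and 62% below 0. At an unadjusted p under 0.05 there were 26 and 14 members.

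The array medians of the mean log2 level did not overlap between these stages. Over the members higher in TM-1 they were 11.23, 11.45 and 11.09 at 16 DPA and 12.93, 12.84 and 12.31 at 19 DPA. Over those higher in *im* they were 11.81, 11.64 and 11.55, and then 9.18, 10.66 and 9.97. Replicate 3 of 19 DPA, without the high Cy3 background, lay nearest to 16 DPA on the TM-1 side and between the others on the *im* side. Lowest on the *im* side was replicate 1, on which TM-1 was under 400 units for 13 of these 18 members.

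The number of calls depended on the arrays. Without replicate 1, 9 members were called (5 rose, 4 fell), without replicate 2, 18 (9 rose, 9 fell), and without replicate 3, 32 (19 rose, 13 fell), against 31. Over all probes tested, the shares that rose and fell were 0.421% and 0.849% without replicate 1, 0.868% and 1.99% without replicate 2, and 9.17% each without replicate 3. The medians over the sides were 1.39 and -1.24 without replicate 1, 1.44 and -1.85 without replicate 2, and 1.66 and -1.57 without replicate 3. When 19 DPA was represented by replicate 3 alone, the medians were 1.23 and -1.27 over the sides, against -0.20 over all probes tested. Without Aquantile scaling the median of all probes tested was 0.06 in place of -0.17, 8.2% of all probes rose and 4.51% fell, and 23 members rose and 12 fell.

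**Figure D4:**
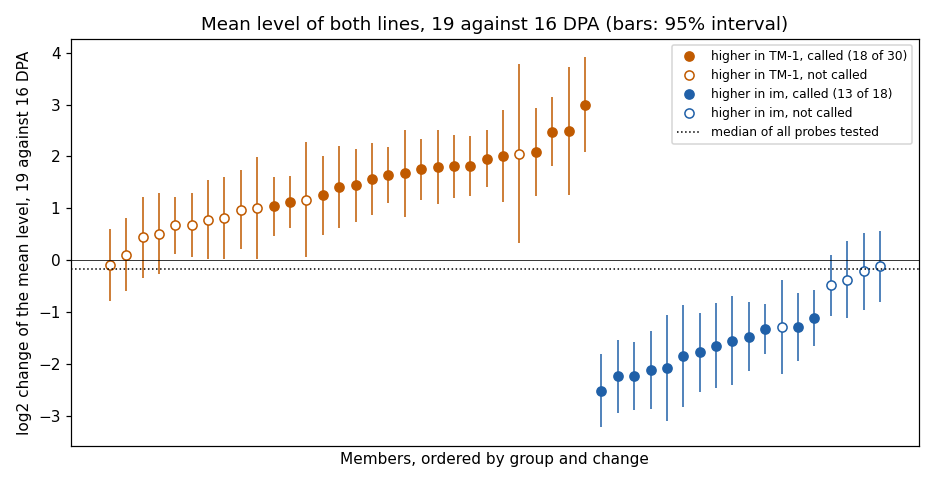
Change of the mean log2 level of both lines from 16 to 19 DPA for each of the 48 members (points, with 95% intervals from limma), filled where called. The 30 members higher in TM-1 (orange) lie between -0.10 and 3.00 and the 18 higher in im (blue) between -2.52 and -0.12; the dotted line is the median of all probes tested, -0.17.

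Spot 11076 rose the most, 7.998-fold. Its mean log2 level was 10.71, 11.62 and 11.19 on the arrays of 16 DPA and 14.03, 15.04 and 13.45 on those of 19 DPA (change 3.00, SE 0.43, adjusted p = 0.000456 from limma). The stages did not overlap, and in units both lines were higher at 19 DPA, from 1032, 2163 and 1843 to 9345, 22684 and 5515 in *im* and from 2599.5, 6647 and 4894.5 to 17886, 46814 and 16036.5 in TM-1. Spot 10879 followed, with a change of 2.49 (SE 0.58, adjusted p = 0.012 from limma). It was measured on 2 arrays of 16 DPA, where its level was 7.58 and 9.67 and its ratio 4.68 and 0.78. On the first of these *im* gave 66.5 units, so both its change and its line ratio at 16 DPA rest on faint spots.

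Spot 6868 fell the most, 5.72-fold. Its level was 12.08, 12.50 and 12.21 at 16 DPA and 9.12, 10.61 and 9.51 at 19 DPA (change -2.52, SE 0.33, adjusted p = 0.000263 from limma). Spot 29182 fell 4.70-fold, with 13.39, 13.26 and 13.89 at 16 DPA and 10.82, 11.82 and 11.21 at 19 DPA (change -2.23, SE 0.33, adjusted p = 0.000593 from limma). For neither did the stages overlap. Spot 29182 also had the widest line ratio at 19 DPA, with -4.06, -2.80 and -2.74, at 255.5, 1312.5 and 811 units in TM-1, against 4666, 8188.5 and 5369 in *im*.

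Between 13 and 16 DPA few members changed in mean level. Of the 30 higher in TM-1, 2 rose (6.67%), where 0.179% of all 16216 probes tested rose and 0.148% fell. None of the 18 higher in *im* was called in limma, with 3 at an unadjusted p under 0.05. Medians were 0.25 and -0.42, against -0.18 over all probes tested.

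Spot 29088 rose 5.58-fold over that interval, from levels of 10.64, 11.34 and 11.10 to 13.82, 13.28 and 13.42 (change 2.48, SE 0.33, adjusted p = 0.00132 from limma). Spot 16844 rose 2.76-fold, from 11.72, 12.03 and 11.42 to 13.25, 13.10 and 13.22 (change 1.47, SE 0.24, adjusted p = 0.00856 from limma). For both, every array of 16 DPA lay above every array of 13 DPA, and both rose again at 19 DPA, 2.96-fold and 2.17-fold (adjusted p = 0.00596 and 0.00599 from limma). Without replicate 1, 2 or 3 there were 0, 1 and 0 calls between 13 and 16 DPA. Over all probes tested 0.0609%, 0.0739% and 0.108% rose in these fits, and 0%, 0% and 0.0432% fell.

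From 19 to 22 DPA 6 of the 48 members were called. Of the members higher in TM-1, 1 rose (3.33%) and none fell, and of those higher in *im*, 2 rose (11.1%) and 3 fell (16.7%). Among all 13118 probes tested 5.31% rose and 4.15% fell. The medians were 0.30 and -0.17, against 0.08 over all probes tested. Without replicate 1 or replicate 2 no member was called in this interval. Over all probes tested 0.823% rose and 0.37% fell without replicate 1, and 1.07% and 0.432% without replicate 2.

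Spot 22295 rose 4.09-fold, from 11.72, 11.60 and 9.99 to 13.32, 13.40 and 12.69 (change 2.03, SE 0.52, adjusted p = 0.0226 from limma). Spot 24709, on the *im* side, did not pass the test from 16 to 19 DPA (change -0.12) and rose 2.87-fold from 19 to 22 DPA (10.25, 10.71 and 10.32 to 11.63, 11.76 and 12.44, adjusted p = 0.00818 from limma). Spot 21110 fell 2.93-fold and then rose 2.83-fold (adjusted p = 0.0205 and 0.0265 from limma). In contrast, spot 29182 fell a further 3.10-fold (change -1.63, adjusted p = 0.00599 from limma), spot 18546 a further 2.37-fold (-1.24, adjusted p = 0.0489) and spot 23442 a further 2.14-fold (-1.10, adjusted p = 0.0362). For spot 18546 the arrays read 9.72, 10.72 and 10.88 at 19 DPA and 8.86, 9.80 and 8.93 at 22 DPA, so the stages overlapped. Spots 21110 and 23442 were outside the rule for named probes and were named after their values had been seen.

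From 22 to 25 DPA no member was called in limma, where 0.042% of all 14291 probes tested rose and 0.266% fell. At an unadjusted p under 0.05 there were 8 members on the TM-1 side and 2 on the *im* side.

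Set out by line, the same values give the course of TM-1 and of *im*. This is a description, since the difference between the lines chose the members. Relative to its own level at 13 DPA, TM-1 stood at a median of 0.73, 2.11, 1.66 and 1.48 on the log2 scale at 16, 19, 22 and 25 DPA over the 30 members higher in TM-1. The *im* mutant stood at -0.40, 0.96, 1.54 and 1.78. Both lines thus had a higher median at 22 and 25 DPA than at 13 DPA, and at 16 DPA only TM-1 did. The median step from 16 to 19 DPA was 1.38 in TM-1, and 1.51 in the mutant. From 19 to 22 DPA 26 of the 30 members were higher at 22 DPA in *im*, whereas 23 of the 30 were lower in TM-1.

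Over the 18 members higher in *im*, TM-1 stood at -0.91, -2.36, -1.81 and -1.83 at the same stages and *im* at 0.06, -1.40, -1.61 and -2.003. At 16 DPA 17 of the 18 were below their level of 13 DPA in TM-1 and 7 of the 18 in *im*. At 19 DPA all 18 were below their level of 16 DPA in both lines, and the medians of these steps were -1.50 and -1.40. All bright probes had medians between -0.36 and -0.15 at these stages in both lines. The counts of members by line were not set beside the same counts over all bright probes.

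The level of TM-1 at 16 DPA was also set against that of *im* at 19 DPA. Their log2 difference had a median of 0.06 over the members higher in TM-1, with 26 of 30 within 1, and of 0.14 over those higher in *im*, with 16 of 18 within 1. Of all bright probes, 87% were within 1. TM-1 at 19 DPA stood above *im* at 22 DPA for 25 of the 30 (median 0.54), and above it for 3 of the 18 (median -0.68), with 25 of 30 and 13 of 18 within 1, against 85.6% of the bright probes. The line values at 16 and 19 DPA chose the members, and these differences cross arrays and were not tested.

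**Figure D5:**
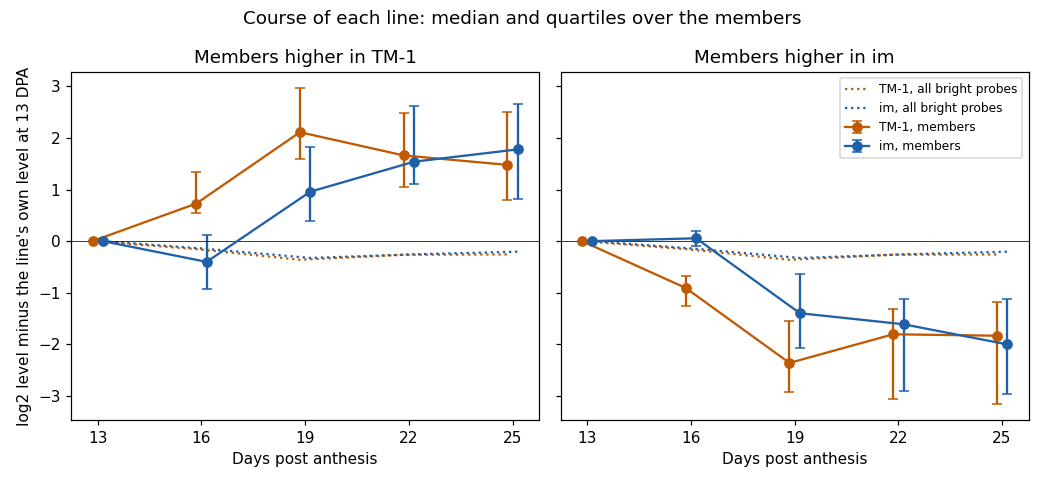
Median (points) and quartiles (bars) over the members of the log2 level of each line minus its own level at 13 DPA, by days post anthesis; TM-1 in orange, im in blue, dotted lines for the medians of all bright probes. Among members higher in TM-1 the medians of TM-1 and im are 0.73 and -0.40 at 16 DPA, and 1.48 and 1.78 at 25 DPA; among members higher in im they are -0.91 and 0.06, and -1.83 and -2.003.

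Probes with the line difference at 16 DPA alone or at 19 DPA alone, by the same limits, were set beside the members. From 16 to 19 DPA 38 of 256 probes higher in TM-1 only at 16 DPA rose in mean level (14.8%), and 19 of 97 higher in TM-1 only at 19 DPA did (19.6%), against 18 of 30 members. Of those higher in *im*, 26 of 201 fell among the probes of 16 DPA alone (12.9%) and 83 of 196 among those of 19 DPA alone (42.3%), against 13 of 18 members. The medians were 0.38 and 0.54 on the TM-1 side and -0.42 and -1.03 on the *im* side, against 1.43 and -1.51 for the members. In the ratio at 22 DPA 4 of the 256 were called higher in TM-1 and none in *im*, and 8 of the 97 were on the TM-1 side and 6 on the side of the mutant. For the 201 these counts were 1 and 3, and for the 196 they were 0 and 11. The shares of all probes tested were 1.76% and 1.93%. The differences between the groups of probes were not tested.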

How the data were processed

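The deposited array files hold the intensities of spots and their surroundings in both dyes, as the authors read them from the scans with LuxScan. The deposited value table holds the authors' log2 ratio of Cy5 over Cy3 (r of 0.959 to 0.996 with the intensities). The methods name LOWESS within and Aquantile between arrays, but whether the value table holds the result of both steps is not stated. In their processing notes the submitters list R 2.12.2 and limma 3.4.5. No column belonged to another series, and 816 control spots were left out.

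R came from the value table, as the rule states, with spots under 400 units in both dyes taken as missing. All other values came from the background-subtracted median intensities with limma 3.58.1 in R 4.3.3. Values under 50 units were set to 50, spots with both dyes under 400 were left out, and loess and Aquantile followed. The log2 ratio and the mean log2 level of both dyes were each fitted with 5 stage coefficients over 15 arrays. Tests needed a measurement on at least 2 arrays of each stage, and a probe was called at a Benjamini-Hochberg adjusted p under 0.05, over all probes tested, with a fold change of at least 2. Every adjusted p is from limma. Precision is limited by the number of arrays. The fits had no term for the replicate number.

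The members, lists and tests were chosen with earlier results of these data known. At most 2 probes per direction and result were named: the largest smaller one of the absolute mean R at 16 and 19 DPA with 1 sign on every array, the largest calls, and those nearest to the limits of the rule. The gene lists and fiber markers drawn up were not used, since 0 probes matched the RefSeq gene table. Alternatives were other background corrections, faint-spot filters, scalings, sources of values and dye assignments, a replicate block, and arrays left out.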

Additional observations from a re-analysis of the deposited data

How the results depend on the processing

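The replicate numbers did not meet the criterion for pairing, a correlation over 0.1 for every pair of same-numbered arrays. For the ratio, deviations from the stage means correlated at -0.12 to 0.53 (replicate 2, with the dyes interchanged, at 0.09 to 0.53), with 21 of 30 over 0.1 and all 3 numbers over it in 4 of 10 pairs of stages. For the mean level they correlated at -0.20 to 0.19, with 6 of 30 over 0.1. With the replicate block the calls among the members numbered 2 at 22 DPA between the lines, and 2, 31, 6 and 0 for the mean level in the 4 intervals in order of stage, the same counts as without it.

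Leaving out a replicate number moved the counts of mean-level calls, from 2 to between 0 and 1 (16 against 13 DPA), from 31 to between 9 and 32 (19 against 16 DPA) and from 6 to between 0 and 6 (22 against 19 DPA). When 19 DPA was represented by replicate 3 alone, the counts from 16 to 19 DPA and from 19 to 22 DPA were lower. The medians from 16 to 19 DPA were then 1.23 and -1.27 over the sides, against -0.20 over all probes tested. Without Aquantile scaling there were 4 calls from 13 to 16 DPA, where 0.389% of all probes tested rose and 0.321% fell. The alternatives on spot flags were chosen after seeing the data. With only the files that hold negative flags, which leaves 1 array each at 19 and 22 DPA, assumed to vary like the other stages, 5 members were called from 16 to 19 DPA, 0 from 19 to 22 DPA and 0 between the lines at 22 DPA. With only the files without such flags, which leaves 1 array at 16 DPA, 16 were called from 16 to 19 DPA (13 rose and 3 fell). Shares over all probes are not set beside the counts with 1 array at a stage. Fewer calls among the members and fewer calls throughout can therefore not be told apart there. Why the counts moved was not tested. The fits with fewer arrays differ both in the number of arrays and in which arrays they hold.

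Under the material labels the rule found 8 probes, and the ratios at 22 DPA turned to -1.28 for spot 10326 and 1.19 for spot 17234. By ratios from the intensities the rule found 45 probes, with replicate 2 weighted equally to replicates 1 and 3 it found 49, and when both dyes had to reach 400 units it found 35. The other 58 counts under an alternative stayed within 1.5 times their main value, but such a count can hold other members or directions. Under the material labels 2 members were called at 22 DPA, of which 0 kept their direction. Without replicate 3, 6 were called from 19 to 22 DPA, of which 3 were main calls in the same direction. For 12 tested values of the named members, 122 of 157 alternatives kept the direction and the call, 33 kept the direction but lost the call, and 2 were those that turned. Faint spots limit the ratios of members near background, and 3 arrays per stage limit all of them.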

Other observations

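The members were counted by their position on the array, without a comparison to other probes. They came from 31 of the 76 printing plates, with at most 3 members on a plate, and from 27 of the 48 printing blocks, with at most 5 in a block. Of 21 pairs of members from the same plate, 10 were on the same side, and 2 pairs of members lay in adjacent spots of a block. Spots 18343 and 13343, of the same plate, were both on the TM-1 side.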
